A study of Mus musculus with 18 samples.

Results

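Enzalutamide given to T23 cells grown without fibroblasts was compared with untreated T23 cells alone, over all genes. The labels call T23 tumour cells and the study's design text calls them adenocarcinoma; the files hold mouse genes. The comparison holds 6 of the study's 18 libraries, chosen by label alone: 3 of T23 cells with enzalutamide and 3 of T23 cells alone. The study asks about SPARC in the stroma under castration and about neuroendocrine differentiation of prostate cancer. A further pair of groups is used below only beside this one: T23 cells with fibroblasts and enzalutamide, and T23 cells with wild-type fibroblasts and no drug. Dose, duration and vehicle of enzalutamide are not given in the sources used here, nor is the tissue of origin of the line. The labels number the replicates 1 to 3 and do not say whether they were separate cultures. Each p-value therefore measures a spread between replicate libraries, which may be technical. That spread was estimated over all 18 libraries in 6 groups. Besides the groups named above, these were co-cultures with Sparc-deficient fibroblasts and co-cultures with enzalutamide and isoliquiritigenin.

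Enzalutamide is an antiandrogen, a drug that blocks the action of androgens on the growth and the secretory genes of the prostate epithelium. In patients it is also known as a strong inducer of drug-metabolising enzymes. Prostate tumours that escape such drugs can lose luminal genes and gain neuroendocrine ones.

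The 3 enzalutamide libraries held 22.0, 16.1 and 22.4 M counts on genes and the 3 T23-alone libraries 22.4, 20.4 and 19.7 M. Replicate 2 of enzalutamide stood apart. It carried 26.4% of its counts (95% Wilson interval 26.4 to 26.5%) on 1 ribosomal RNA gene, CT010467.1, against 0.102% and 0.138% in the other two enzalutamide libraries and 0.0582 to 0.0828% in T23 cells alone. That library therefore held 11.8 M counts on other genes. The chi-square of counts over its degrees of freedom between replicates was 621 and 630 for the pairs with this library, 5.66 for the other enzalutamide pair and 2.59 to 3.22 within T23 cells alone. Results below are given with this library, and the values without it stand beside those that moved most.

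Normalised values are CPM, counts per M counts after TMM scaling. A gene was called when the adjusted p of edgeR's quasi-likelihood test was under 0.05, and log2 fold changes are enzalutamide over T23 alone, ± SE. Of 13600 genes tested, 1636 were called (12%). Of these, 930 were higher with enzalutamide (6.84% of the genes tested) and 706 were lower (5.19%). The changes were mostly small. A call of at least 2-fold was made for 113 genes, 49 higher and 64 lower, and the median log2 fold change over all genes tested was 0. The ranges of the 2 groups did not overlap for 4049 genes (29.8%), which included 1595 of the called genes. The gene lists used below hold 867 genes, of which 695 had enough counts to be tested. Counts and medians are over these. In bulk RNA, fewer cells of a type and less RNA per cell cannot be told apart, and this holds for every gene below.

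Without enzalutamide replicate 2, 1281 of 13886 genes were called (9.23%), 673 of them higher (4.85%) and 608 lower (4.38%). Of the 1636 genes, 1076 were called both ways with the same sign (594 higher, 482 lower), none changed direction between calls, and 560 (336 higher, 224 lower) were called only with that library. Among the 113 genes at 2-fold or more, 84 were called both ways. The other genes of that set include those highest in replicate 2. Rn7sk, the 7SK small nuclear RNA, had 0.936, 572 and 1.29 CPM with enzalutamide, against 0.4298, 0.802 and 0.7404 CPM in T23 cells alone. Lars2, the mitochondrial leucyl-tRNA synthetase, had 191, 12086 and 212 CPM with enzalutamide, against 273, 287 and 259 CPM in T23 cells alone. In both, only replicate 2 was high and the adjusted p without it was 0.25 and 0.17. The histone genes Hist1h4d, Hist1h4c, Hist1h1a, Hist1h1b, Hist1h1d and Hist1h1e also were called at 2-fold or more only with that library. The call count also depended on the untreated libraries: it was 951, 1024 and 901 without T23 alone replicate 1, 2 and 3. With only the 6 libraries fitted it was 740, and 2086 when enzalutamide replicate 2 was left out of that fit. In the fit of all groups, the spread between replicates (biological coefficient of variation) was 7.03% with that library and 5.04% without it.

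**Figure D1:**
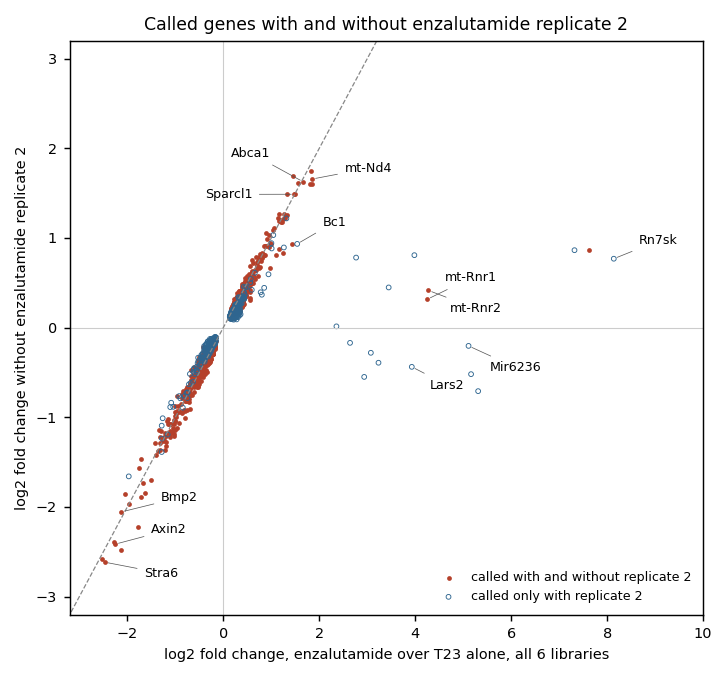
Log2 fold changes of the 1636 called genes with all 6 libraries of the comparison (x axis) and without enzalutamide replicate 2 (y axis). Both come from fits that also held the study's other groups. Filled points were called both ways, open points only with that library, and the dashed line marks equal values; most genes lie along it, while Rn7sk, Lars2, Mir6236 and the mitochondrial ribosomal RNAs lie far to its right. Of the called genes, 2 lie outside the axes.

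The cells were first checked against cell type markers. Of 18 luminal epithelial markers, 4 reached a mean of 1 CPM over the 6 libraries and 2 a mean of 10 CPM, and the list summed to 129 to 159 CPM with enzalutamide and 118 to 127 CPM in T23 cells alone. Epcam, the epithelial cell adhesion molecule, had no counts in the 3 enzalutamide libraries and 1 count in each T23-alone library. The luminal genes Krt20 and Cldn3 had no counts in any of the 6 libraries. Of 10 basal markers 2 reached 1 CPM, summing to 4.804 to 6.71 CPM with enzalutamide and 6.08 to 8.94 CPM in T23 cells alone. In contrast, 24 of 25 mesenchymal markers reached 1 CPM, with sums of 39507 to 40979 CPM with enzalutamide and 41901 to 43269 CPM in T23 cells alone. Endothelial markers (1 of 10 at 1 CPM or more) summed to 4.099 to 6.14 CPM with enzalutamide and 6.697 to 7.602 CPM in T23 cells alone. Leukocyte markers (3 of 17) summed to 17.3 to 18.2 CPM with enzalutamide and 14.1 to 16.8 CPM in T23 cells alone, with Cd3e, Adgre1 and Tyrobp at 0 counts throughout. The part of such markers in the results below was not tested.

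Of 13 tested genes of the androgen response list, 1 was called higher and 2 lower (0 and 1 without replicate 2), with a median log2 fold change of 0.01. Fkbp5, a chaperone of steroid receptors and a widely induced androgen target, had 53.6, 49.7 and 55.2 CPM with enzalutamide, against 58.8, 61.03 and 64.8 CPM in T23 cells alone. Its call (-0.21 ± 0.07, adjusted p = 0.0464) was lost without enzalutamide replicate 1 or 2 or T23 alone replicate 1, 2 or 3 (adjusted p 0.0604 to 0.189). Camkk2, a calcium-dependent kinase and androgen target, fell and was called also in each fit that left out 1 of the 6 libraries (33.4, 30.5 and 32.9 CPM with enzalutamide, against 40.2, 39.3 and 40.9 CPM in T23 cells alone, -0.31 ± 0.06, adjusted p = 0.00132). The prostate secretory genes Pbsn and Msmb had no counts in any of the 6 libraries, which allows up to 0.129 to 0.272 CPM in a library (3 counts). Among 10 steroid-metabolising enzymes tested, 1 was called, Hsd17b4 (0.19, adjusted p = 0.0226), and that call was lost without enzalutamide replicate 2 or T23 alone replicate 1, 2 or 3 (adjusted p 0.0579 to 0.106).

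Several of the deepest falls were in Wnt signalling genes. In this pathway secreted Wnt proteins bind Frizzled and LRP receptors, beta-catenin is spared from destruction and TCF/LEF factors switch on target genes, among them inhibitors that feed back on the pathway. Axin2 (chr11:108920349-108950783, GRCm38), a scaffold of the complex that destroys beta-catenin and a feedback target of the pathway, had 4.099, 5.35 and 2.98 CPM with enzalutamide, against 17.3, 17.4 and 22.1 CPM in T23 cells alone. The highest treated library stood far below the lowest untreated one. This was 4.78-fold lower (log2 -2.26 ± 0.14, adjusted p = 2.12e-10, and -2.42 without replicate 2). Apcdd1, a membrane-bound Wnt inhibitor, had 36.4, 32.9 and 32.4 CPM with enzalutamide, against 85.7, 76.9 and 82.2 CPM in T23 cells alone (-1.26 ± 0.09, adjusted p = 2.95e-09). Lgr5, a receptor for R-spondins and a Wnt target of stem cells, had 2.27, 2.45 and 1.78 CPM with enzalutamide, against 4.51, 4.15 and 4.59 CPM in T23 cells alone (-1.06 ± 0.20, adjusted p = 0.00124). Groups were apart for both genes. Of the 18 Wnt feedback and target genes tested, 5 were called lower and 2 higher (median log2 fold change -0.17), against 1 higher and 5 lower without replicate 2. Prickle1, a planar polarity protein, was at -0.55 and Dkk3, a secreted Dickkopf family member, at -0.31, both called. The higher ones were Sfrp1, a secreted Wnt-binding protein (0.38), and Myc, a growth-promoting transcription factor (0.31). Their calls were weaker: Sfrp1 was lost without enzalutamide replicate 2 or 3 or T23 alone replicate 1, 2 or 3 (adjusted p 0.0507 to 0.173), and Myc without enzalutamide replicate 3 or T23 alone replicate 1 (adjusted p 0.0814 to 0.086). Other common targets, Ccnd1 (-0.11, adjusted p = 0.228), Lef1 (0.25, 0.182) and Znrf3 (0.07, 0.706), were not called.

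Among 26 tested Wnt ligands, receptors and agonists, 10 were called lower and 3 higher (median -0.15), and without replicate 2 these counts were 12 and 3. Wnt7b, a ligand, had 38.1, 35.7 and 46.4 CPM with enzalutamide, against 85.7, 88.5 and 92.8 CPM in T23 cells alone. The groups were far apart (-1.14 ± 0.10, adjusted p = 3.54e-08). The ligands Wnt11 (-1.78), Wnt10a (-1.11) and Wnt6 (-1.14) fell as well, at means of under 3 CPM in both groups. Wnt9a (-0.51) and Wnt5a (-0.21) fell less, and so did the receptors Fzd1 (-0.53), Fzd2 (-0.39) and Ror1 (-0.40). The R-spondins, secreted proteins that strengthen Wnt signals, went the other way. Rspo2 had 29.9, 28.3 and 26.7 CPM with enzalutamide, against 18.3, 18.02 and 16.04 CPM in T23 cells alone (0.70 ± 0.11, adjusted p = 0.000178). Rspo3 had 4.32, 4.17 and 4.404 CPM with enzalutamide, against 1.55, 2.36 and 1.83 CPM in T23 cells alone (1.18 ± 0.19, adjusted p = 0.000239). The third higher call, the co-receptor Lrp6 (0.26), was lost without T23 alone replicate 2 or 3 (adjusted p 0.0794 to 0.0852).

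Genes of bone morphogenetic protein signalling, which act through secreted ligands and antagonists that trap them, included lower transcripts of ligands and antagonists alike. Bmp2, a ligand, had 1.56, 1.18 and 1.47 CPM with enzalutamide, against 5.97, 6.23 and 6.76 CPM in T23 cells alone. Nog, which encodes the antagonist noggin, had 3.52, 3.17 and 2.58 CPM with enzalutamide, against 6.83, 8.25 and 9.48 CPM in T23 cells alone. In neither gene did the groups overlap (log2 -2.13 ± 0.20, adjusted p = 9.53e-08, and -1.40 ± 0.17, adjusted p = 7.32e-06). Bmp4 (-0.57) and the regulator Bmper (-0.42) were also called lower, whereas Grem1, an abundant secreted antagonist, was called higher (0.32, 892 ± 17.02 CPM with enzalutamide against 715 ± 24.99 CPM in T23 cells alone, SD, n = 3 each). Of 24 tested members 5 were lower and 1 higher (median -0.18), and 4 and 1 without replicate 2. Id1, a direct target of the pathway, was the fifth (-0.37), and its call was lost without enzalutamide replicate 2 or 3 or T23 alone replicate 1 or 3 (adjusted p 0.0608 to 0.188). Id2 (0.04, adjusted p = 0.899) and Id3 (-0.24, 0.16) were not called.

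**Figure D2:**
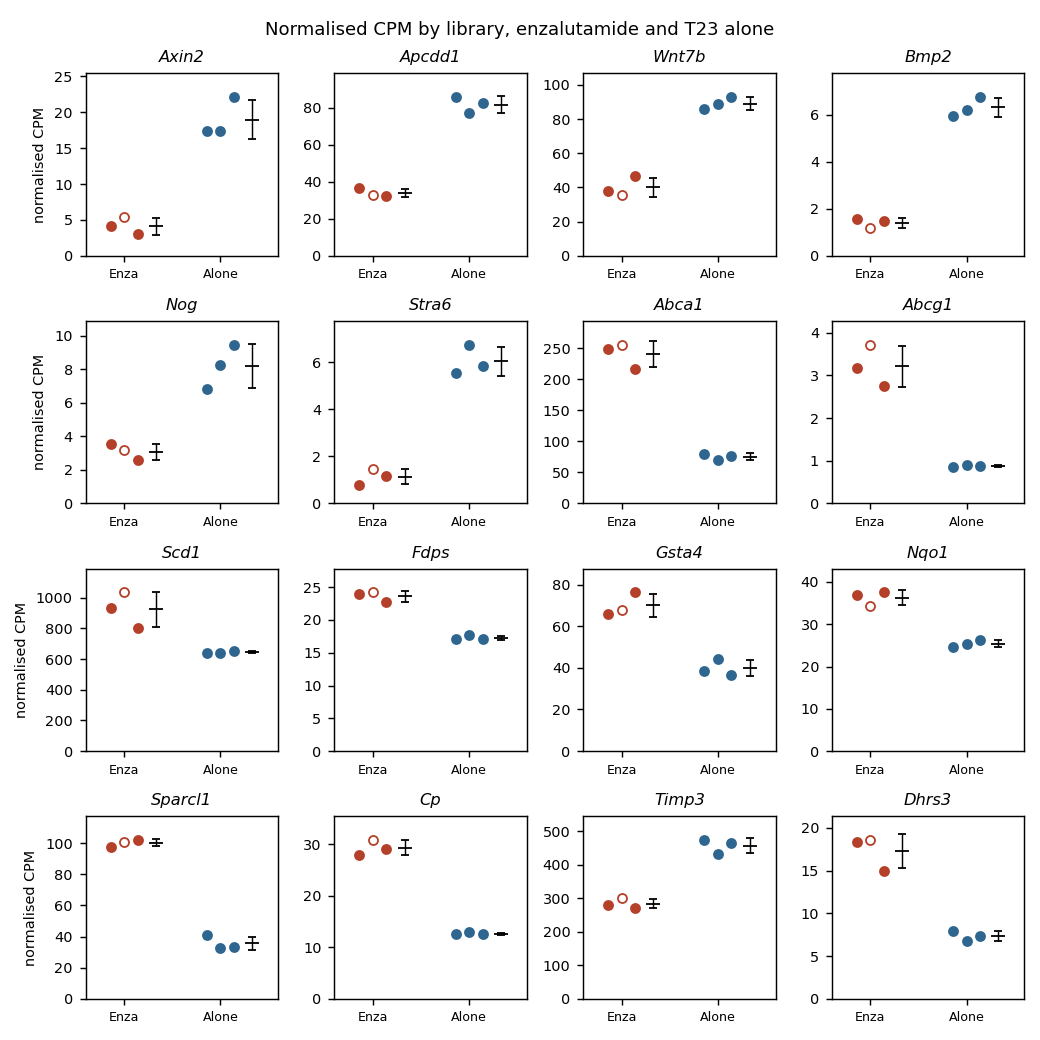
Normalised CPM of 16 genes in each library, enzalutamide left and T23 alone right in each panel, with mean ± SD (n = 3) beside the points and a vertical axis from 0. The open circle is enzalutamide replicate 2; in all 16 genes the 2 groups are apart, with Axin2, Apcdd1, Wnt7b, Bmp2, Nog, Stra6 and Timp3 lower and the other 9 higher with enzalutamide.

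Genes of cholesterol export rose, led by Abca1 (chr4:53030787-53159895), the pump that moves cholesterol out of cells to apolipoproteins. It had 249, 256 and 216 CPM with enzalutamide, against 80.3, 70.03 and 76.1 CPM in T23 cells alone. Each treated library stood far above the highest untreated one, and no gene tested had a smaller p. The rise was 3.18-fold (log2 1.67 ± 0.07, adjusted p = 1.51e-13, 1.63 without replicate 2). Abca1 is a known target of the liver X receptors, nuclear receptors that sense oxysterols and switch on cholesterol export. Of 13 tested members of the liver X receptor list, 5 were called higher and 1 lower, with and without replicate 2 (median log2 fold change 0.34 with it and 0.37 without). Abcg1, another cholesterol exporter, had 3.16, 3.72 and 2.76 CPM with enzalutamide, against 0.8596, 0.896 and 0.889 CPM in T23 cells alone (1.83 ± 0.23, adjusted p = 1.09e-05). Mylip, a ubiquitin ligase that limits lipoprotein uptake, had 38.2, 40.1 and 34.7 CPM with enzalutamide, against 24.1, 20.3 and 23.9 CPM in T23 cells alone (0.72 ± 0.08, adjusted p = 1.25e-06). Groups were well apart in both. The others were Scd1, a fatty acid desaturase (0.52), and Lpcat3, which remodels phospholipids (0.34). Arl4c, a small GTPase of the list, fell (147, 151 and 146 CPM with enzalutamide, against 221, 225 and 238 CPM in T23 cells alone, -0.62 ± 0.05, adjusted p = 9.59e-09). Srebf1, the lipogenic factor that the receptors also drive, was at 0.02 (adjusted p = 0.875), and Apoe was at 0.30 (adjusted p = 0.632).

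Because the element through which oxysterol receptors act on Abca1 is known to lie in its proximal promoter, that window is shown, from RefSeq on GRCm38.p6 (chr4:53159846-53160145, minus strand, 250 bases before to 50 after the start). The capitals mark a direct repeat found by search of both strands for GGTTANNNNNGGTCA, read here as its reverse complement, 67 to 53 bases before the start. The motif was chosen after the values had been seen, and for an element already known in this promoter. Its presence in Abca1 was therefore no test, and the share of windows below only describes how common the motif is.
Abca1: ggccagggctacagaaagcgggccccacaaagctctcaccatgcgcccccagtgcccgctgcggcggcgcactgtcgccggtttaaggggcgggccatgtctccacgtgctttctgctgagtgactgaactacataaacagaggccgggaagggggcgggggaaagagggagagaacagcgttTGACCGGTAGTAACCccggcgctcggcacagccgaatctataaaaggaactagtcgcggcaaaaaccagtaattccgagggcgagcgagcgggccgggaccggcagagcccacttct
Of 32851 such windows of the mouse genome, 16 hold this motif (0.0487%). Among the 6 called genes of the list, 4 had a window and 1 of these, Abca1, held it.

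Some sterol synthesis genes rose in small steps. These enzymes make cholesterol from acetyl-CoA under control of the factor SREBP2. Of 23 tested, 11 were called, all higher, and 12 were not (median 0.19), and without replicate 2 9 were called, all higher (median 0.15). Fdps, which makes farnesyl diphosphate, had 24.02, 24.2 and 22.7 CPM with enzalutamide, against 17.1, 17.6 and 17.03 CPM in T23 cells alone (0.45 ± 0.09, adjusted p = 0.00119). The groups were apart. Hmgcs1 (0.33), Msmo1 (0.33), Nsdhl (0.33) and Sqle (0.23) were called in this fit and in each fit that left out 1 of the 6 libraries. Among the members not called, Dhcr7 was at 0.08 (adjusted p = 0.555) and Cyp51 at -0.00 (0.997). Fatty acid synthesis genes behaved alike, with 7 of 13 called, all higher (median 0.23), and 6 higher and 1 lower without replicate 2. Acaca, which makes malonyl-CoA, had 158, 168 and 163 CPM with enzalutamide, against 114, 111 and 109 CPM in T23 cells alone (0.55 ± 0.05, adjusted p = 7.52e-08). Fasn, fatty acid synthase, was at 0.43 and the desaturases Scd2 and Fads2 at 0.46 and 0.24, all called. Scd1 belongs to this list and to the liver X receptor list, and it had 930.1, 1035 and 805 CPM with enzalutamide, against 638, 642 and 652 CPM in T23 cells alone.

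Targets of NRF2, a factor that raises glutathione, NADPH and detoxifying enzymes under oxidative or electrophilic stress, formed the most one-sided larger list. Of 27 tested, 15 were called, all higher (median 0.22), and 16, all higher, without replicate 2. Gsta4, a glutathione transferase that clears lipid aldehydes, had 65.9, 68.02 and 76.3 CPM with enzalutamide, against 38.6, 44.4 and 36.8 CPM in T23 cells alone (0.81 ± 0.08, adjusted p = 1.66e-07). Nqo1, a quinone reductase, had 36.98, 34.3 and 37.5 CPM with enzalutamide, against 24.6, 25.3 and 26.3 CPM in T23 cells alone (0.52 ± 0.08, adjusted p = 0.000164). In both, the lowest treated library was above the highest untreated one. Slc7a11, the cystine importer (0.53), Gclc, the catalytic subunit that starts glutathione synthesis (0.49), Abcc4, an export pump (0.51), and the pentose phosphate enzymes Pgd (0.38) and G6pdx (0.26) were called as well. The ferritin gene Fth1 was called higher (0.38), while Ftl1, the light chain, was not (-0.09, adjusted p = 0.786); both have pseudogenes that could share reads. Hmox1 (0.12, adjusted p = 0.237) and Srxn1 (0.03, 0.785), often strong targets, were not called. DESeq2 called 17 of the 27, all higher, and at an unadjusted p under 0.05 17 were higher and 0 lower.

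The promoter windows of called NRF2 targets were searched on both strands for the core of the antioxidant response element, TGACNNNGC. Of 11 called members with a RefSeq window, 6 held it, in 7 of 18 windows. Among all genes with a window 14% hold it, and among all 32851 windows 12.4%. The list was made of genes named as NRF2 targets, and its members that were not called were not searched. These shares are therefore no test. Matches of 4 members are shown on GRCm38.p6 with 20 bases on each side and the match in capitals, so that the shared core can be read.
G6pdx: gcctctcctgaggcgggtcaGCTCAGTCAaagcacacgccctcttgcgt
Pgd: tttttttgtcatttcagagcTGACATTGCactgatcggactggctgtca
Abcc4: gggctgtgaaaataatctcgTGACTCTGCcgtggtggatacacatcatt
Mgst1: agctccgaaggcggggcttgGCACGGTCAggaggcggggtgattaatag
These lie at chrX:74428909-74428957, chr4:149166051-149166099, chr14:118676926-118676974 and chr6:138140451-138140499. In G6pdx and Mgst1 the capitals are the reverse complement of the motif. Mgst1, a microsomal glutathione transferase, was called higher (0.22), a call lost without enzalutamide replicate 1 or T23 alone replicate 1 (adjusted p 0.0641 to 0.107). The same search for the TCF/LEF motif CTTTGAT found it in 3.73% of all windows, in none of the 3 windows of called Wnt feedback genes and in 1 of 7 windows of called Wnt ligand and receptor genes, that of Wnt11.

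Drug-metabolising genes that the xenobiotic receptors PXR and CAR control were mostly at or near 0. Of 17 listed, 6 genes had enough counts to be tested and 1 was called: Aldh1a1, a retinaldehyde dehydrogenase, which had 5.66, 5.26 and 5.43 CPM with enzalutamide, against 12.9, 12.6 and 13.2 CPM in T23 cells alone (-1.23 ± 0.11, adjusted p = 3.54e-08). All treated libraries were lower. Of the 6 tested genes, however, 5 had a positive log2 fold change and 1 a negative one (median 0.13, highest 1.81). At an unadjusted p under 0.05, 2 of them were higher and 1 lower. Cyp3a11, a liver cytochrome P450 gene and a standard PXR target in mouse, had no counts in any of the 6 libraries. Of 5 tested aryl hydrocarbon receptor genes, the receptor Ahr itself fell (-0.74), Tiparp was called lower (-0.23) and Cyp1b1, a steroid- and hydrocarbon-oxidising enzyme, rose (0.44, adjusted p = 0.000475). The call of Tiparp was lost without enzalutamide replicate 3 or T23 alone replicate 1 or 3 (adjusted p 0.0672 to 0.0916). Aldh1a1 also stands among the 13 tested retinoid genes, of which 2 were called higher and 2 lower (3 and 2 without replicate 2). Stra6, the receptor that takes retinol into cells, had 0.802, 1.45 and 1.16 CPM with enzalutamide, against 5.54, 6.74 and 5.82 CPM in T23 cells alone. It was 5.56-fold lower with no overlap (-2.48 ± 0.24, adjusted p = 2.01e-07). Dhrs3, which turns retinaldehyde back into retinol and is itself induced by retinoic acid, had 18.4, 18.6 and 14.99 CPM with enzalutamide, against 7.91, 6.79 and 7.31 CPM in T23 cells alone (1.23 ± 0.11, adjusted p = 3.54e-08). Rarb, a retinoic acid receptor, rose (1.06), a call lost without enzalutamide replicate 1 or T23 alone replicate 2 (adjusted p 0.0732 to 0.0974).

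**Figure D3:**
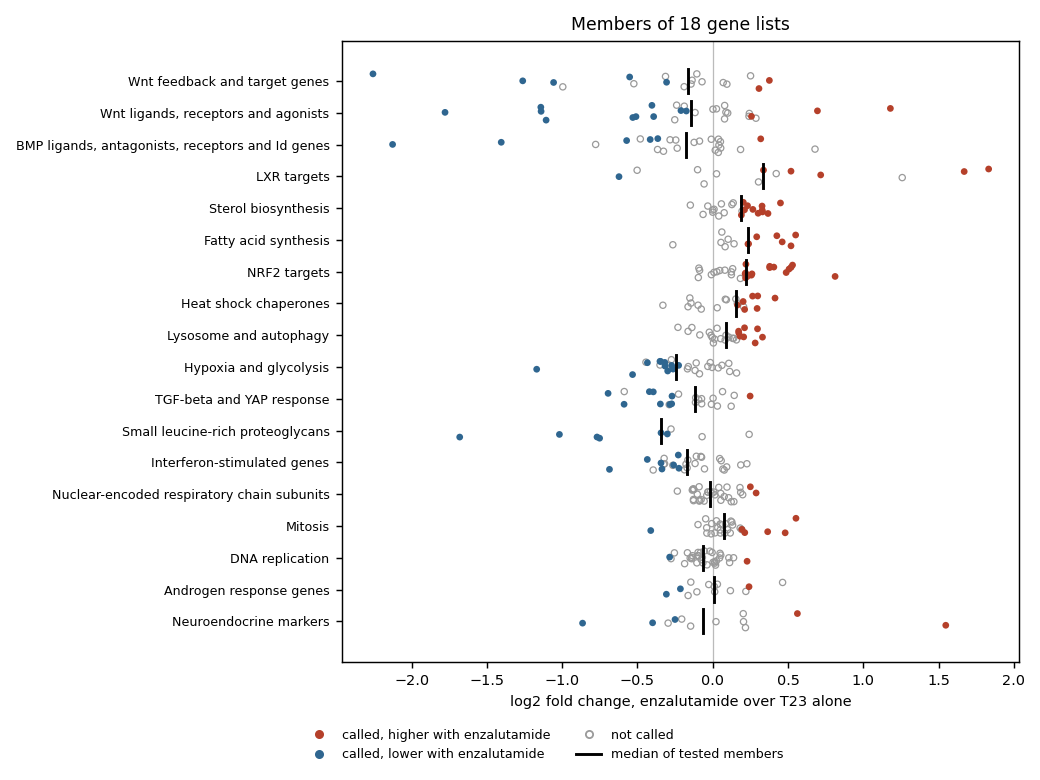
Log2 fold change (enzalutamide over T23 alone) of every tested member of 18 gene lists, 1 row per list. Filled points were called, open points were not, and the black bar is the median of tested members. The liver X receptor, sterol, fatty acid and NRF2 rows lie mostly right of 0. The Wnt feedback, proteoglycan, hypoxia and interferon rows lie mostly left of it. Wnt ligands, receptors and agonists are split, with 12 positive and 14 negative.

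Transcripts of the mitochondrial genome were higher with enzalutamide. This small genome encodes core subunits of the respiratory chain and the RNAs of the mitochondrial ribosome. All 9 of its tested genes on the list of 15 were called higher by edgeR, with or without replicate 2, but their sizes differed between the fits: the median log2 fold change was 1.81 with replicate 2 and 0.83 without it. DESeq2 called the 7 protein-coding ones higher and gave no adjusted p for mt-Rnr1 and mt-Rnr2. mt-Co1, a subunit of cytochrome oxidase, had 7125, 12625 and 9289.7 CPM with enzalutamide, against 2325, 2182 and 3583 CPM in T23 cells alone. mt-Nd4, a subunit of complex I, had 979, 1684 and 1375 CPM with enzalutamide, against 338, 330.4 and 451 CPM in T23 cells alone. Replicate 2 was the highest of the 3 treated libraries in both, and the other two still exceeded every untreated library. Their log2 fold changes were 1.84 ± 0.31 (adjusted p = 0.000334) and 1.85 ± 0.29 (adjusted p = 0.000161), and 1.61 and 1.66 without replicate 2. mt-Cytb (1.81, 1.61 without), mt-Nd6 (1.25, 0.83), mt-Nd5 (1.16, 0.87), mt-Nd2 (1.10, 0.80) and mt-Nd1 (0.97, 0.66) behaved likewise. mt-Nd6 is encoded on the opposite strand to its neighbours, and the strand setting of the counting is not given in the sources used here. The ribosomal RNA mt-Rnr2 had 343, 14993 and 379 CPM with enzalutamide, against 259, 258 and 294 CPM in T23 cells alone. Nearly all of that difference lay in replicate 2 (4.27 with it and 0.42 without). As a share of all counts, mitochondrial messenger RNAs took 1.81, 2.16 and 2.22% with enzalutamide, against 0.787, 0.773 and 1.05% in T23 cells alone. Respiratory chain subunits encoded in the nucleus did not move with them: of 33 tested, 2 were called, both higher (median -0.02). These 2 were Uqcrb (0.29, lost without enzalutamide replicate 2 or T23 alone replicate 1, 2 or 3 (adjusted p 0.0539 to 0.21)) and Ndufb10 (0.25, lost without T23 alone replicate 1 or 3 (adjusted p 0.0582 to 0.0661)). Without enzalutamide replicate 3, 2 of the 33 were called higher and 4 lower (median -0.05).

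**Figure D4:**
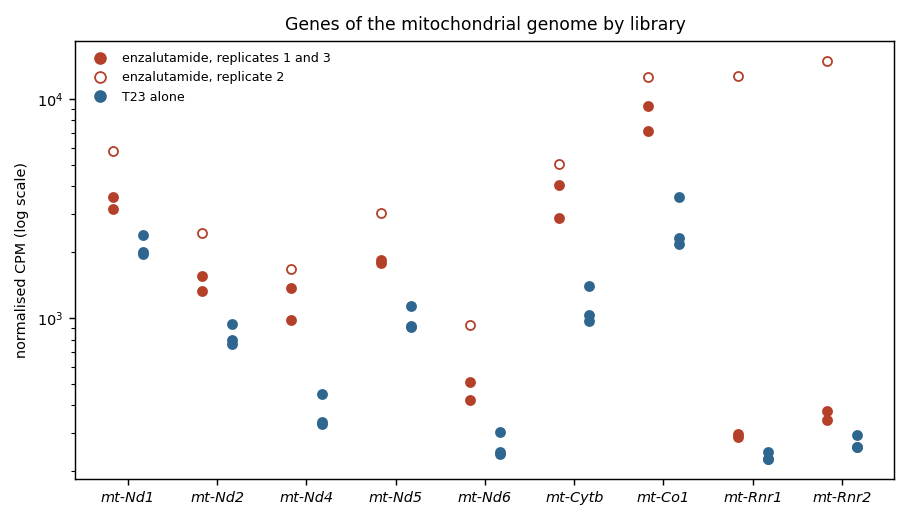
Normalised CPM on a log scale of 9 genes of the mitochondrial genome, with the 3 enzalutamide libraries left and the 3 T23-alone libraries right for each gene. Replicate 2 of enzalutamide is the open circle; the 7 protein-coding genes are higher in every treated library, and mt-Rnr1 and mt-Rnr2 stand far higher in replicate 2 alone.

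Matrix genes changed in both directions. Sparc, the matricellular glycoprotein of the study's title, had 2651, 2667 and 2590.4 CPM with enzalutamide, against 3208, 3192 and 3191 CPM in T23 cells alone. The fall was small and without overlap (-0.28 ± 0.05, adjusted p = 0.000282). Its relative Sparcl1, hevin, had 97.9, 101 and 102 CPM with enzalutamide, against 40.7, 32.6 and 33.4 CPM in T23 cells alone. No treated library came near the untreated range (2.81-fold, 1.49 ± 0.07, adjusted p = 1.99e-12). Of 6 tested members of the Sparc family, Spock3 (-0.82) and Fstl1 (-0.24) also fell. Small leucine-rich proteoglycans, which bind and space collagen fibrils, fell most evenly among matrix groups: 6 of 9 tested were called, all lower (median -0.34), and 7 without replicate 2 (median -0.49). Fmod, fibromodulin, had 2.58, 2.72 and 2.05 CPM with enzalutamide, against 8.34, 7.36 and 7.45 CPM in T23 cells alone (-1.68 ± 0.14, adjusted p = 3.54e-08). Omd (-1.02), Prelp (-0.77), Aspn (-0.75), Dcn (-0.34) and Podnl1 (-0.30) were lower too. Of 22 collagen chains 4 were called higher and 6 lower. The higher calls became 2 without enzalutamide replicate 3 or T23 alone replicate 1, and the lower ones 3 without T23 alone replicate 1 or 3. The basement membrane chains Col4a1 (0.35) and Col4a2 (0.30) rose and the fibrillar chains Col1a1 (-0.32) and Col1a2 (-0.23) fell. Col4a5, also a basement membrane chain, was called lower (-0.28 to -0.20 over the fits that left out 1 of the 6 libraries). Its call was lost without enzalutamide replicate 3 or T23 alone replicate 1 or 3 (adjusted p 0.0556 to 0.0882). Timp3, a protease inhibitor held in the matrix, had 279.9, 299.8 and 272 CPM with enzalutamide, against 474, 431 and 464 CPM in T23 cells alone (-0.69 ± 0.06, adjusted p = 6.71e-08). Among 17 proteases and inhibitors tested, 2 were called higher and 3 lower (3 and 3 without replicate 2), Adamts5, an aggrecanase, being higher (0.34). Of 24 tested mesenchymal markers 5 were called higher and 7 lower (3 and 8 without replicate 2), the lower ones including Dpt, dermatopontin (-1.25), Mfap5 of microfibrils (-0.91), S100a4 (-0.67) and the transcription factor Twist1 (-0.46), and the higher ones Fap (0.72), a surface protease of activated fibroblasts. The 5 higher calls became 3 without enzalutamide replicate 2 or T23 alone replicate 3, 2 without T23 alone replicate 1 and 1 without T23 alone replicate 2.

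Genes that TGF-beta and the mechanosensitive factor YAP raise were lower in 8 of 23 tested cases and higher in 1 (median -0.11), and lower in 9 and higher in 1 without replicate 2. Ccn1, a secreted matricellular YAP target, had 429.9, 395 and 491 CPM with enzalutamide, against 655, 621 and 705 CPM in T23 cells alone (-0.59 ± 0.07, adjusted p = 2.11e-06). Its relative Ccn2 (-0.42), the ligand Tgfb3 (-0.70) and the matrix protein Tgfbi (-0.40) were called lower, and groups did not overlap in any of these 4 genes. The 8 lower calls became 5 without T23 alone replicate 3. The 1 higher call was Ankrd1 (0.19 to 0.30 over the fits that left out 1 of the 6 libraries). It was lost without enzalutamide replicate 3 or T23 alone replicate 1, 2 or 3 (adjusted p 0.0689 to 0.116). Immediate-early factors, rapidly induced by growth factors, had 5 of 19 called lower and 1 higher (median -0.15, and 4 and 1 without replicate 2), with Fos at -0.75 and Ier2 at -0.51 but Egr3 at 0.55. In the EGF receptor list, the receptor Egfr rose (308, 329 and 319 CPM with enzalutamide, against 252, 243 and 231 CPM in T23 cells alone, 0.40 ± 0.06, adjusted p = 0.000151). The ligand Nrg1 (-0.30) and the feedback inhibitor Spry1 (-0.55) fell, with 1 of 23 called higher and 3 lower in all (1 and 2 without replicate 2). Among 17 genes of the IL-6 and STAT3 list, 3 were called higher, among them the receptors Osmr (0.35) and Il4ra (0.29), and 1 lower (2 and 2 without replicate 2). Of 19 NF-kB targets 2 were higher and 4 lower (1 and 3 without replicate 2). The 6 NF-kB calls became 2 without T23 alone replicate 1 or 3 and 3 without T23 alone replicate 2. Of 10 Notch genes 1 was called, Notch1 (0.31, higher).

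Genes of glycolysis and of the response to low oxygen were lower in 11 of 28 tested cases, with 0 called higher by edgeR or DESeq2 and 1 higher at an unadjusted p under 0.05, and their median was -0.25. Eno1, enolase, had 531, 343 and 516 CPM with enzalutamide, against 679, 643 and 691 CPM in T23 cells alone (-0.53 ± 0.11, adjusted p = 0.00191). Ldha, lactate dehydrogenase, had 1369.8, 1165 and 1287 CPM with enzalutamide, against 1612, 1477 and 1674 CPM in T23 cells alone (-0.32 ± 0.07, adjusted p = 0.00313). No treated library reached the untreated range in either gene. Both have close copies or pseudogenes in the mouse genome, so their counts are uncertain. The count of lower calls was unstable, being 14 without replicate 2 and 6 without enzalutamide replicate 3, 2 without T23 alone replicate 1 and 3 without T23 alone replicate 3. Interferon-stimulated genes were lower in 7 of 28 tested cases (median -0.17), 5 without replicate 2, with Oas1a, an antiviral RNA sensor with near-identical relatives, at -0.69 and Ifi27 at -0.43. Without enzalutamide replicate 3, 2 were called lower and 2 higher. The lower calls became 2 without T23 alone replicate 2, 3 without T23 alone replicate 1 and 4 without T23 alone replicate 3. DESeq2 called 1 higher and 9 lower.

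The study's question of neuroendocrine differentiation rests on marker genes that were mostly near 0 in these cells. Chga, chromogranin A, and the factor Insm1 had no counts in any of the 6 libraries. Syp, synaptophysin, had 2, 0 and 2 counts with enzalutamide, against 3, 1 and 4 counts in T23 cells alone. Of 28 listed markers, 10 reached 1 CPM, and the list summed to 256 to 320 CPM with enzalutamide and 317 to 327 CPM in T23 cells alone. Ncam1, a neural cell adhesion molecule, had 110.3, 129 and 98.4 CPM with enzalutamide, against 133, 132 and 134 CPM in T23 cells alone (-0.25 ± 0.07, adjusted p = 0.0257). Its call held without replicate 2 of enzalutamide (adjusted p = 0.000618) and was lost without enzalutamide replicate 1 or 3 or T23 alone replicate 1, 2 or 3 (adjusted p 0.061 to 0.125). Eno2, neuron-specific enolase, had 46.5, 37.6 and 37.9 CPM with enzalutamide, against 47.7, 41.97 and 46.1 CPM in T23 cells alone, and was not called (-0.15 ± 0.09, adjusted p = 0.287). Of 12 tested members 2 were called higher and 3 lower (1 and 2 without replicate 2). Stmn2, a neuronal microtubule regulator, fell (2.896, 1.995 and 3.16 CPM with enzalutamide, against 5.29, 4.905 and 5.03 CPM in T23 cells alone, -0.86). Nefl, the light neurofilament chain, was called higher (0.936, 0.816 and 1.07 CPM with enzalutamide, against 0.344, 0.189 and 0.444 CPM in T23 cells alone, 1.55). The other two calls, Syt1 (0.56) and Uchl1 (-0.40), were lost without enzalutamide replicate 1 or 2 or T23 alone replicate 1, 2 or 3 (adjusted p 0.0853 to 0.129) and without enzalutamide replicate 2 or T23 alone replicate 1 or 2 (adjusted p 0.0778 to 0.0926).

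DNA replication genes moved little, while some mitosis genes were higher. Of 33 DNA replication genes 1 was called higher and 1 lower (6.06% called, median -0.07). Of 28 mitosis genes 5 were higher and 1 lower (21.4% called, median 0.07), and 21 had a positive log2 fold change. Over all genes tested, 12% were called. Mki67, a proliferation marker, had 476, 624 and 489 CPM with enzalutamide, against 379.9, 359 and 399 CPM in T23 cells alone (0.48 ± 0.08, adjusted p = 0.0004). Cenpf (0.55) and Cenpe (0.36), long kinetochore proteins, were higher too, while Cenpa, the centromeric histone, was lower (-0.41). Ccnb1 (-0.05, adjusted p = 0.696), Cdk1 (-0.04, 0.644) and Pcna (-0.09, 0.416) were not called. The 5 higher mitosis calls became 3 without enzalutamide replicate 2 or T23 alone replicate 1, 2 or 3. Of 10 D cyclins and CDK inhibitors 2 were called, Ccnd3 (-0.25) and Cdkn1a (-0.21), both lower, and of 22 p53 targets 1 was higher and 2 lower. The 2 replication calls became 1 without enzalutamide replicate 1 or 2 and 0 without T23 alone replicate 1, 2 or 3, and the 3 p53 target calls 6 without enzalutamide replicate 3 and 0 without T23 alone replicate 3. The call of Ccnd3 was lost without enzalutamide replicate 1 or 2 or T23 alone replicate 1, 2 or 3 (adjusted p 0.0634 to 0.234), and that of Cdkn1a without enzalutamide replicate 2 or T23 alone replicate 1, 2 or 3 (adjusted p 0.0505 to 0.118).

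Other genes are given here by the size of the fold, taken from called genes that averaged 5 CPM or more and whose groups were apart. Cp, ceruloplasmin, a copper-carrying ferroxidase, had 27.98, 30.8 and 29.2 CPM with enzalutamide, against 12.5, 12.9 and 12.5 CPM in T23 cells alone (1.21 ± 0.07, adjusted p = 3.44e-11). It was higher in each treated library, which the choice of these genes required. Fbln7, a fibulin of the matrix (1.14), and Malat1, a nuclear long noncoding RNA (1.43), were among the largest rises with Abca1, Sparcl1, Dhrs3 and the mitochondrial transcripts. The value of Malat1 ran from 0.93 to 1.69 over the fits that left out 1 of the 6 libraries. Bc1, a short cytoplasmic RNA made by RNA polymerase III, was at 1.54 (adjusted p = 0.0125), a call lost without enzalutamide replicate 2 or T23 alone replicate 1 or 3 (adjusted p 0.0501 to 0.0707). Hopx, a homeodomain protein without DNA binding, had 11.1, 11.1 and 12.6 CPM with enzalutamide, against 29.1, 29.5 and 28.4 CPM in T23 cells alone (-1.31 ± 0.09, adjusted p = 6.4e-10). Enpp2, autotaxin, which makes lysophosphatidic acid, had 10.2, 11.3 and 11.3 CPM with enzalutamide, against 26.6, 24.4 and 23.2 CPM in T23 cells alone (-1.18 ± 0.13, adjusted p = 9.24e-07). Neither overlapped between groups, again by that choice. Adcyap1r1, the receptor of the neuropeptide PACAP (-1.15), Gap43, a growth cone protein (-1.22), Mrgprf, an orphan receptor (-0.98), and Tmem45a, a membrane protein (-1.01), were among the other large falls. All of the genes named here as largest, Bc1 apart, were called without replicate 2 as well.

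The same drug was also given to T23 cells grown with fibroblasts, and that comparison shares no library with this one. Descriptions of the treated co-culture speak of human fibroblasts while its titles carry the fibroblast name of the untreated wild-type co-culture, so the fibroblasts may differ between those groups. The co-culture gave 977 calls among 13600 genes (7.18%), with 503 higher (3.7%) and 474 lower (3.49%). Without 1 library, the count fell to 550 (treated co-culture replicate 2) and 637 (wild-type co-culture replicate 3), and it was 214 with a term for the second numbering series of the titles, to which treated replicates 2 and 3 belong. When enzalutamide replicate 2, which that comparison does not hold, was left out of the shared fit (a setting added after seeing the data), it came to 1423 calls among 13886 genes (10.2%), with 731 up (5.26%) and 692 down (4.98%). Of the 930 genes higher without fibroblasts, 884 had a positive log2 fold change in co-culture and 302 were called higher there, which is 32.5% of the 930 and 60.04% of the 503. Of the 706 lower genes, 676 had a negative value and 291 were called lower, 41.2% of the 706 and 61.4% of the 474. Called in the opposite direction were 1 of the 930 and 2 of the 706.

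Gene by gene, Axin2 was at -2.24 with fibroblasts (adjusted p = 9.92e-10), close to its value without them. Bmp2 was at -1.30 (adjusted p = 3.61e-05), Stra6 at -1.68 (1.19e-05), Sparcl1 at 1.16 (5.39e-10), Abcg1 at 1.51 (0.000209) and Gsta4 at 0.71 (1.42e-06), all with the sign they had in T23 cells alone. Sparc was at -0.17 (adjusted p = 0.0234). Over all genes tested, the co-culture called 3.7% higher and 3.49% lower. By list, it called 7 of 23 sterol synthesis genes, 7 of 27 NRF2 targets and 7 of the 9 mitochondrial genes higher. Of 13 liver X receptor targets 6 were higher and 1 lower, and of 18 Wnt feedback genes 2 were higher and 4 lower. Hypoxia and glycolysis genes were called lower in 21 of 28 cases (median -0.41). For interferon-stimulated genes the counts ran the other way than without fibroblasts, 8 of 28 higher and 1 lower in co-culture. The test of the difference between the 2 responses called 3 genes (0.0221%), 2 with the larger value in co-culture (0.0147%) and 1 with the smaller (0.00735%), and 755 (5.55%) had an unadjusted p under 0.05. They were Abca1, Oas2, an interferon-induced antiviral enzyme, and Chac1, a glutathione-degrading enzyme of the stress response, each with an adjusted p of 0.0496. Without enzalutamide replicate 2 none was called by edgeR (adjusted p 0.0506, 0.0506 and 0.0571), with 868 genes at an unadjusted p under 0.05, and DESeq2 called the same number, 3, with all libraries.

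**Figure D5:**
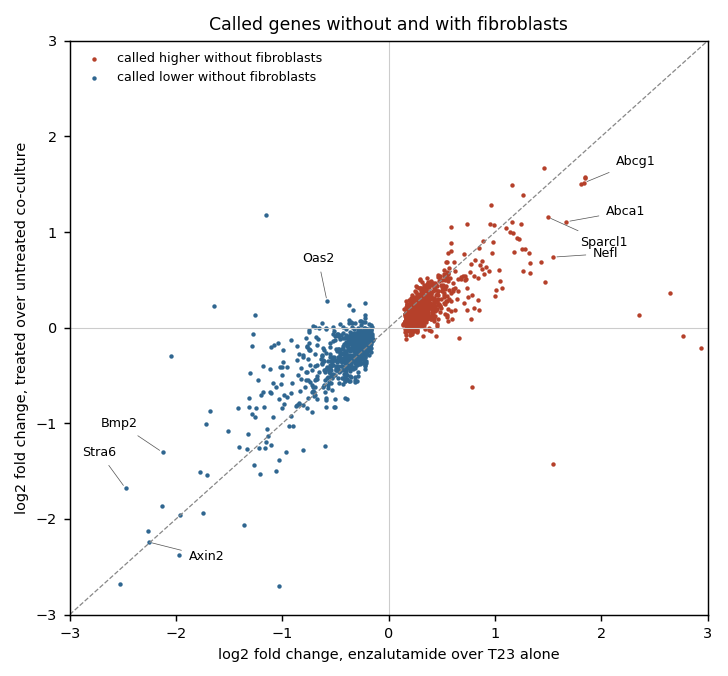
Log2 fold changes of the 1636 called genes without fibroblasts (x axis, enzalutamide over T23 alone) and with fibroblasts (y axis, treated over untreated co-culture). Genes called higher and lower without fibroblasts are in different colours, the dashed line marks equal values, and most genes lie in the 2 quadrants of like sign, as do Axin2, Bmp2, Stra6, Abca1, Abcg1, Sparcl1 and Nefl. Of the called genes, 15 lie outside the axes.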

How the data were processed

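RNA of T23 cells had been made into stranded libraries after poly(A) capture and run on a NextSeq 550, per the labels' protocols. The authors deposited raw counts per gene, not normalised, under Ensembl gene identifiers in a file for each library. The submitters' processing notes name STAR 2.6.1d and featureCounts 2.0, the trimmer cutadapt 2.9, DESeq2, and the build GRCm38. Annotation release, strand setting and the treatment of multiply mapped reads are not given in the sources used here, so counts of overlapping or antisense genes, paralogs and pseudogenes are uncertain. Of 55487 genes per file, 55227 had a symbol in GENCODE M21, and the 260 without one held 0.00552% of all counts.

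Genes were kept with filterByExpr (minimum count 10), scaled by TMM and tested with edgeR 4.0.16 (limma 3.58.1, R 4.3.3) by a two-sided quasi-likelihood F test. All 18 libraries in 6 groups shared 1 fit, which left 12 residual degrees of freedom; the biological coefficient of variation was 7.03%, and 5.04% without enzalutamide replicate 2. P-values were adjusted by Benjamini-Hochberg over all genes tested. The test was checked on simulated data. The SE was taken as the absolute log2 fold change divided by the root of F. A count of 0 allows up to 3 counts in a library. Intervals and floors cover counting error only. Alternatives were DESeq2 1.42.0, other scaling and filters, a replicate block, fits of fewer groups and leaving out each library. RefSeq promoter windows were searched for motifs without a test.

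Named genes are Fkbp5, Sparc, Ncam1, Eno2, Chga, Syp and Axin2, the 15 called genes with the largest rise and the 15 with the largest fall (a symbol of a known gene, a mean of at least 5 CPM, ranges apart), and, from each of 43 gene lists where 5 or more members were tested, at most 4 called members taken by smallest p. A few genes that this rule names are not reported here. The other genes in the text were chosen after their values were seen. The comparison and all lists were chosen with earlier results of these data known, so their counts are descriptions and were not tested as sets.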

Additional observations from a re-analysis of the deposited data

Results flagged for a closer look

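With all libraries fitted, the test of the difference itself called Abca1, Oas2 and Chac1 between the responses with and without fibroblasts. The response of Oas2 in co-culture (adjusted p = 0.125) and that of Chac1 without fibroblasts (adjusted p = 0.0576) were not called on their own. Abca1 had 166.9, 153 and 162 CPM in treated co-culture, against 79.6, 68.8 and 75.5 CPM in wild-type co-culture, so that its rise there (1.11) was smaller than without fibroblasts (1.67), a difference of -0.56 on the log2 scale. Oas2 had 15.9, 15.8 and 17.1 CPM in treated co-culture, against 13.5, 13.7 and 13.1 CPM in wild-type co-culture. Without fibroblasts it had 10.96, 9.52 and 8.54 CPM with enzalutamide, against 15.2, 13.7 and 14.6 CPM in T23 cells alone, and the responses differed by 0.85. Chac1 had 12.5, 11.2 and 11.9 CPM in treated co-culture, against 8.54, 8.798 and 7.84 CPM in wild-type co-culture. Without fibroblasts it had 11.2, 9.16 and 10.5 CPM with enzalutamide, against 13.1, 12.97 and 11.9 CPM in T23 cells alone, and the responses differed by 0.78. Each adjusted p was 0.0496, just under the threshold. Over 19 alternatives the calls of Abca1, Oas2 and Chac1 were made in 5, 5 and 6, with adjusted p of 2.97e-07 to 0.967, 7.8e-06 to 0.967 and 0.000834 to 0.49, while the sign never changed (-0.63 to -0.51, 0.76 to 0.98 and 0.72 to 0.85). The fibroblasts named for the treated co-culture cannot be told apart from the drug there. With a term for the numbering series of the titles, to which its replicates 2 and 3 belong, none of the 3 was called.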

How the results depend on the processing

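Of 1636 called genes the count stayed within 1.5 times under RLE scaling (1627), no filter (1726), removal of the ribosomal RNA gene (1602) or mitochondrial genes (1635), DESeq2 (1749) and the 6 libraries without enzalutamide replicate 2 (2086). It was 740 with only these 2 groups in the fit, 113 for calls of at least 2-fold and 901 to 1710 over the fits that left out 1 library. The share of higher calls was 56.8%, 43.4% at 2-fold or more, and 50.2 to 58.8% over the other settings just named. Correlations between same-number libraries, as deviations from their group means, were 0.01, 0.00377 and -0.00214. For numbers 1 and 2 the same-number library gave the highest correlation. Since enzalutamide replicate 2 stood far apart from the other treated libraries, these values do not show whether replicate numbers pair libraries. The replicate block gave 1539 calls, and 491 with only 2 groups. Of members of the lists, 215 were called, 138 with only 2 groups, 107 with the block there, and 142 to 202 without 1 library. Of 142 named genes called, 108 kept their call without any 1 of the 6 libraries, 114 to 134 were called in each such fit, and 0 changed sign in any setting. The block ended 1 named call, Ccnd3 (adjusted p = 0.0568), and 44 with only 2 groups, where the fit without it ended 26. The 3 differences between responses became 0 under RLE scaling, without the ribosomal RNA gene, with the replicate block and with a term for the numbering series, 99 without a filter, and 0 to 12 without 1 library. The 977 co-culture calls became 214 with that series term and 550 to 924 without 1 library of that comparison. Without enzalutamide replicate 2, a setting added after seeing the data, they were 1423. Causes were not tested beyond the construction of these fits, in which fewer libraries give fewer degrees of freedom. Depth limits genes of a few counts, most of all in enzalutamide replicate 2.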

Other observations

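Some chaperone, lysosomal and stress response genes were slightly higher with enzalutamide, while most members of each list were not called. Of 19 heat shock chaperones 7 were called, all higher (median log2 fold change 0.15), with the mitochondrial chaperone Hspd1 at 0.41 and the cytosolic Hspa8, Hsp90aa1 and Hsph1 at 0.29, 0.26 and 0.30. The 7 became 4 without T23 alone replicate 1 or 3. Without enzalutamide replicate 3, 6 were called higher and 2 lower, and DESeq2 called 7 higher and 1 lower. Hspd1 and Hspa8 have pseudogenes that could share reads, and the inducible Hspa1a (-0.16, adjusted p = 0.876) was not called. Of 25 lysosome and autophagy genes 8 were called, all higher (median 0.09): Npc1, which passes cholesterol out of lysosomes, had 70.00, 72.9 and 70.4 CPM with enzalutamide, against 60.04, 57.1 and 56.2 CPM in T23 cells alone (0.30 ± 0.05, adjusted p = 0.000458). The hydrolase genes Hexa (0.28) and Gla (0.33) and the membrane protein gene Lamp1 (0.21) were among the others. The count of higher calls became 5 without enzalutamide replicate 3 or T23 alone replicate 1 or 2 and 4 without T23 alone replicate 3. Without enzalutamide replicate 3, 1 was also called lower.

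In the integrated stress response, which raises amino acid supply, 6 of 24 genes were called, all higher (median 0.10; 8 without replicate 2), among them Asns, asparagine synthetase (0.29), and Slc3a2, an amino acid transporter subunit (0.22). The 6 higher calls became 3 without enzalutamide replicate 3 or T23 alone replicate 1. Without enzalutamide replicate 1 or 3, 1 member was called lower. Ddit3 (0.10, adjusted p = 0.476) and Atf3 (-0.13, 0.647), stress-induced factors, were not called. Of 22 genes of the unfolded protein response 4 were called, all higher (median 0.03), and these became 1 without enzalutamide replicate 2 or T23 alone replicate 2 and 0 without T23 alone replicate 1 or 3. Hspa5, its marker chaperone, was at 0.11 (adjusted p = 0.155).

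Of 14 smooth muscle genes 1 was called, Myl9 (-0.49), a call lost without T23 alone replicate 2 (adjusted p 0.0906). Of 9 genes of cartilage and bone 2 were called higher and 1 lower, with the secreted osteopontin gene Spp1 at 0.49, and these 3 calls became 1 without enzalutamide replicate 1 or T23 alone replicate 1 or 3. The adipogenic list had 1 of 9 called, the lipid droplet coat gene Plin2 (257, 227 and 289 CPM with enzalutamide, against 313, 329 and 324 CPM in T23 cells alone, -0.32 ± 0.07, adjusted p = 0.00372). Among tested markers of other cell types, Trp63 was the 1 called of 4 basal genes (-0.68) and Kdr the 1 of 3 endothelial genes (-0.70, adjusted p = 0.00582). The call of Trp63 was lost without enzalutamide replicate 1, 2 or 3 or T23 alone replicate 1 or 3 (adjusted p 0.0508 to 0.18). Of 3 leukocyte genes, 0 were called by edgeR or DESeq2 and 0 had an unadjusted p under 0.05.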
